A study of Mus musculus with 8 samples.

Results

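The 31 immediate early response genes described here are transcription factors, phosphatases, mRNA decay factors and other feedback regulators. They were chosen by name from a table of 38026 genes and followed in 8 bulk RNA-seq libraries of mouse brain myeloid cells. All 31 were listed once and all 31 were among the 15262 genes tested. The TAM group (tumor-associated microglia and macrophages) had 5 libraries, each of cells from medulloblastoma (a cerebellar tumor), in mice 68, 90, 61, 66 and 62 days old for replicates 1 to 5. The microglia group had 3 libraries from normal cerebral cortex of mice 60 days old. All mice were C57BL/6, and both tissues went through the same papain digestion, myelin depletion and capture on CD11b magnetic beads. CD11b is also carried by monocytes and granulocytes, the labels do not give the genotype that drives the tumor, and tumor against cortex cannot be told apart from cerebellum against cortex. TPM keeps no read depth; 12683 to 14242 genes reached 1 TPM in TAMs and 14375 to 16619 did in microglia. Each TAM library has its own age, so the TAM libraries come from different mice. Labels do not say whether the 3 microglia libraries, all at 60 days, come from separate mice. The p-values therefore measure the spread between these libraries.

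Immediate early genes are switched on within minutes of a stimulus, without new protein synthesis, when kinase cascades act on transcription factors already bound at their promoters. Their products are short-lived. Some, such as Fos and Jun, start the next wave of transcription, and others, such as the Dusp phosphatases and Zfp36, shut the signal or its mRNAs down again. In microglia and macrophages they respond to cytokines, bacterial products, injury and the enzymatic dissociation of tissue.

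Most early response genes were lower in TAMs than in cortical microglia on TPM as deposited. On the rescaled TPM described below 17 of the 31 were lower, and 13 to 17 when 1 library was left out, so there "most" does not hold firmly. On TPM as deposited, the microglia mean was at least 4 times the TAM mean in 12 of the 31. The share of all genes at that mark was not counted, and the size of the gap depends on the scaling described below. For Egr1 the TAM and microglia means were 162.5 and 853.4 as deposited, but 196.6 and 596.4 on rescaled TPM. On TPM (transcript abundance per transcript length and library total) 26 of the 31 were lower in TAMs, 1 was higher and 4 did not pass, at an adjusted p of 0.05 with limma on log2(TPM + 1). On this scale 56.4% of all tested genes were called lower and 8.22% higher, and log2 fold changes had a median of -1.48 over the early response genes and -0.65 over all tested genes. Each library was therefore also divided by its median ratio to the average library, which brought the median of all genes to 0.05. On these rescaled values 17 of the 31 were lower in TAMs, 3 were higher and 11 did not pass, against 21.2% lower and 27.3% higher among all tested genes (3241 and 4167 genes), and the median over the early response genes was -0.65. The 17 genes lower on rescaled TPM were also lower on TPM. So were all 3241 tested genes lower on rescaled TPM (21.2%), so being lower on both scales adds nothing to the rescaled call. Of the 31 only Dusp5 was higher on both, against 8.18% of all tested genes. When each library was left out in turn, 13 of the 17 stayed lower on both scales every time, Dusp5 stayed higher every time, and Dusp1, Egr3, Ier2 and Zfp36l1 each lost a call at least once. Without microglia replicate 2 or 3 the lower calls over all genes on rescaled TPM were 1665 and 1546, and without microglia replicate 2 those on TPM were 5581, against 8610 with it. In bulk libraries, fewer cells of a type and less RNA per cell cannot be told apart.

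The DESeq2 results in the authors' deposited table, with p-values adjusted here over 27039 genes, called the same 17 lower and the same 3 higher as the rescaled fit. This is not an independent check. Both use the same libraries, and both centre all tested genes near 0, with median log2 fold changes of 0.09 in the authors' table and 0.05 on rescaled TPM. Of all genes with a p-value there, 16% were lower and 17.6% higher. In 26 of the 31, every TAM library lay below every microglia library on TPM, against 49.7% of all tested genes, and in 1 every TAM library lay above, against 7.97%. On rescaled TPM these counts were 16 below, against 21.3% of all genes, and 2 above, against 26%. Summed over the 31 genes, TAM replicates 1 to 5 held 4787, 6137, 5594, 5929 and 6455 TPM, against 19630, 18450 and 19250 TPM in microglia replicates 1 to 3. This was 0.480% to 0.648% of all TPM in TAMs and 1.86% to 1.97% in microglia, so the groups stood well apart.

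**Figure D1:**
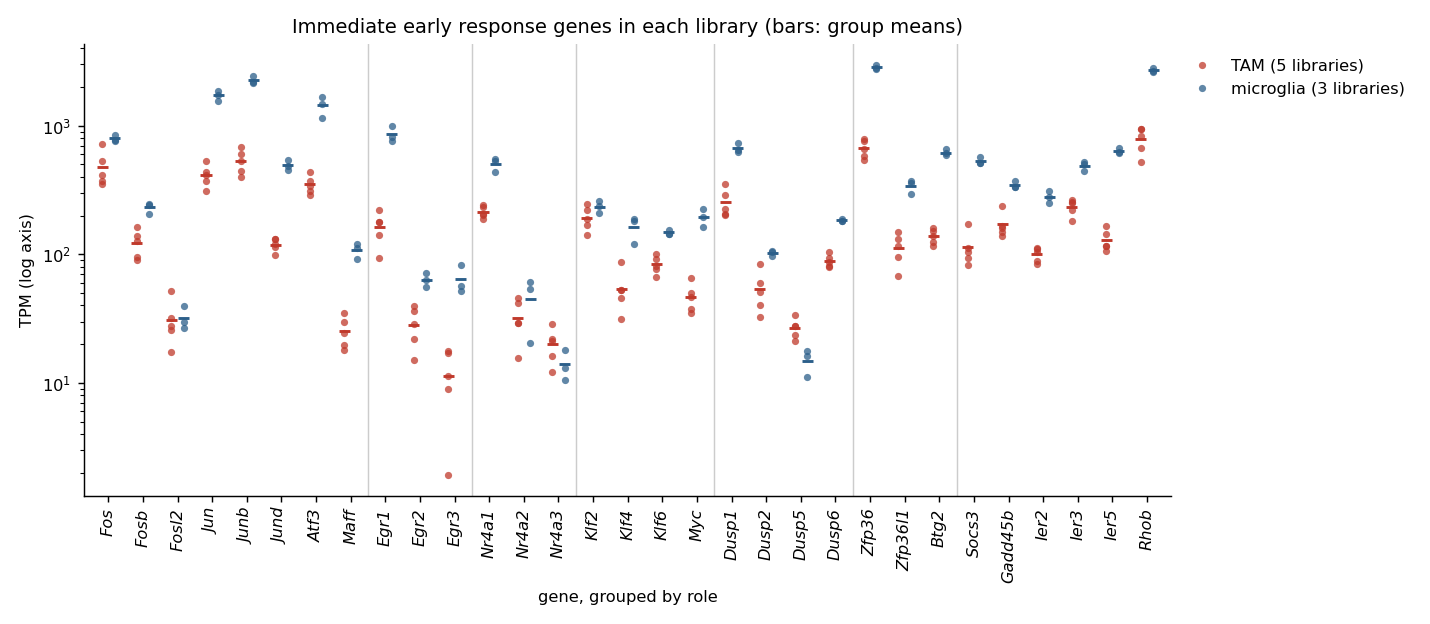
TPM (log axis) of each early response gene in every library, with genes grouped by role, TAM libraries in red to the left of microglia libraries in blue, and bars at group means. The points of the groups do not overlap for 27 of the 31 genes, with Dusp5 the gene whose TAM points all lie above.

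Promoter sequence was available for 27 of the 31 genes (RefSeq, GRCm38.p6, 250 bases before to 50 after each start), and not for Egr1, Ier2, Myc and Egr3. Both strands were searched for the binding motifs through which early genes are best known to be switched on. The CArG box, bound by serum response factor, was found in 3 of the 27 (11.1%), against 1.81% of 27025 genes in the same table. The cyclic AMP response element TGACGTCA was found in 3 others (11.1%, against 2.03%). The loose AP-1 pattern TGANTCA, where N is any base, was in 1 (3.7%, against 8.97%), as TGATTCA in Zfp36l1. The Egr motif GCGTGGGCG was in 1 (3.7%, against 0.707%) and the TATA motif TATAAA in 5 (18.5%, against 15.7%). The sequences below are shown because they are the searched promoters with a CArG box or TGACGTCA match in this window. The matches stand in capitals (in Maff the first capitals are the Egr motif). Elements farther from the start or with other letters would be missed, so the lack of a match does not show that a gene lacks them. None of the printed matches overlap. Dusp5 holds a pair of CArG boxes side by side, and Egr2 holds 2 different ones before its several annotated starts, of which the one at the higher coordinate is shown.
Dusp5 CArG (chr19:53529033-53529112, + strand): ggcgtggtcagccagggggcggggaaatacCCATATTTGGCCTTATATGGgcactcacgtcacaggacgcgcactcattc
Zfp36 CArG (chr7:28379247-28379316, - strand): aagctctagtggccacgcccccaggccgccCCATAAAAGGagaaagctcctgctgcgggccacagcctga
Egr2 CArG (chr10:67537767-67537836, + strand): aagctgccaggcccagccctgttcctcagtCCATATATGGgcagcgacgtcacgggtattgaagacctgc
Btg2 CRE (chr1:134079284-134079351, - strand): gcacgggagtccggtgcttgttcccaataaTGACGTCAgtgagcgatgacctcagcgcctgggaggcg
Dusp1 CRE (chr17:26508578-26508645, - strand): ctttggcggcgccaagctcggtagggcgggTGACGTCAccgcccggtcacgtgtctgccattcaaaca
Maff Egr and CRE (chr15:79347402-79347519, + strand): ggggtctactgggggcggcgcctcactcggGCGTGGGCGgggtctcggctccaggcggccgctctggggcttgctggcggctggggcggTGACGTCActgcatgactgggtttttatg
The 3 genes with a CArG box did not move alike. On rescaled TPM their log2 fold changes were 1.58 for Dusp5, -1.29 for Zfp36 and -0.40 for Egr2, the last without a call. The 3 genes with a cyclic AMP response element were all lower on both scales, as were 17 of all 31 genes. On rescaled TPM they stood at -1.34 for Btg2, -0.59 for Dusp1 and -1.27 for Maff. The rescaled call for Dusp1 was lost without any 1 library other than TAM replicate 2. Whether genes with different motifs moved differently was not tested. A match is a description of these letters and does not show binding.

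AP-1 is a dimer of Fos and Jun proteins, or of relatives such as Atf3. Of its 8 genes here, 7 were lower on TPM and 5 on rescaled TPM, with all 3 Jun genes lower on both scales and 0 of the 3 Fos genes called on rescaled TPM. Jun (chr4:95049034-95052222, - strand), the founding Jun subunit, was at 309, 416, 433, 373 and 528 TPM in TAM replicates 1 to 5, against 1718, 1563 and 1864 TPM in microglia replicates 1 to 3. Every TAM library lay far below every microglia library. The log2 fold change of Jun was -2.07 (SE 0.17, limma adjusted p = 6.69e-05) on TPM and -1.25 (SE 0.18, limma adjusted p = 0.000946) on rescaled TPM. Junb, which can restrain Jun, was at 398, 685, 442, 604 and 529.6 TPM in TAM replicates 1 to 5, against 2424, 2174 and 2149 TPM in microglia replicates 1 to 3, again without overlap. Junb changed by a log2 of -2.10 (SE 0.18, limma adjusted p = 8.84e-05) on TPM and -1.28 (SE 0.25, limma adjusted p = 0.00405) on rescaled TPM. Jund, a subunit known for steady expression, was at 99.1, 131, 114, 120.0 and 132 TPM in TAM replicates 1 to 5, against 539.7, 456 and 489 TPM in microglia replicates 1 to 3. The TAM libraries lay close together and all below microglia, with log2 fold changes of -2.05 (SE 0.12, limma adjusted p = 1.71e-05) on TPM and -1.23 (SE 0.18, limma adjusted p = 0.00120) on rescaled TPM. The annotated antisense gene Gm11175 lies wholly within Jund and was at 73.0 to 130 TPM in TAMs and 364 to 446 TPM in microglia. The strand of the libraries is not given in the sources used here, so reads of Jund and Gm11175 cannot be told apart. Jun also overlaps the antisense gene Junos.

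The proportions of the 3 Jun genes to each other were close in the groups. The log2 ratio of Jun to Junb was -0.36 ± 0.35 in TAMs (SD, n = 5) and -0.39 ± 0.16 in microglia (SD, n = 3), a difference of 0.03. For Jun to Jund the difference between groups was -0.02 and for Junb to Jund -0.05, each smaller than the SD within either group.

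Fos (chr12:85473890-85477273, + strand), the partner of Jun in classical AP-1, was at 369.6, 724, 411, 349 and 527 TPM in TAM replicates 1 to 5, against 762, 851 and 769.8 TPM in microglia replicates 1 to 3. All TAM libraries were below all microglia libraries, but TAM replicate 2 came close to them. Its log2 fold change was -0.79 (SE 0.23, limma adjusted p = 0.0164) on TPM and 0.03 (SE 0.24, limma adjusted p = 0.917) on rescaled TPM, so its fall on TPM was near that of the median gene. The call on TPM was lost without microglia replicate 2 (log2 fold change -0.74, adjusted p = 0.0629) and when Mir6236, Mir6240 and Gm15662, 3 abundant noncoding features, were left out of the total (-0.59, adjusted p = 0.0603). Fosb, a close relative of Fos, was at 94.5, 126, 139, 90.9 and 164 TPM in TAM replicates 1 to 5, against 206, 247 and 240.4 TPM in microglia replicates 1 to 3. Its groups did not overlap, and its log2 fold change was -0.94 (SE 0.20, limma adjusted p = 0.00399) on TPM and -0.12 (SE 0.15, limma adjusted p = 0.548) on rescaled TPM. Fosl2, also called Fra-2, was at 17.3, 51.9, 25.7, 27.7 and 32.2 TPM in TAM replicates 1 to 5, against 29.6, 26.9 and 39.6 TPM in microglia replicates 1 to 3. Microglia lay within the range of the TAM libraries, and neither scale gave a call (-0.12 on TPM, adjusted p = 0.748, and 0.68 rescaled, adjusted p = 0.106).

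A ratio of genes within a library does not depend on how the library is scaled. The ratio of Fos to Jun was 1.20, 1.74, 0.947, 0.937 and 0.997 in TAM replicates 1 to 5, against 0.444, 0.545 and 0.413 in microglia replicates 1 to 3. Every TAM library thus held more Fos per Jun than any microglia library. Fos to Zfp36 was 0.527 to 0.926 in TAMs and 0.272 to 0.285 in microglia, and Fos to Egr1 was 1.97 to 7.80 in TAMs and 0.780 to 1.12 in microglia. These 3 ratios were chosen after the values were seen and are descriptions. By mean TPM, Fos ranked 4 among the 31 genes in TAMs and 7 in microglia, while Rhob, Zfp36 and Junb held the first 3 ranks in both groups.

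Atf3, a stress-induced factor that can repress inflammatory genes, was at 311, 337, 434, 372 and 291 TPM in TAM replicates 1 to 5, against 1683, 1155 and 1477 TPM in microglia replicates 1 to 3. The groups did not overlap, and the log2 fold change was -2.04 (SE 0.17, limma adjusted p = 6.98e-05) on TPM and -1.21 (SE 0.29, limma adjusted p = 0.0102) on rescaled TPM. Maff, a small Maf protein without an activation domain, was at 29.6, 17.9, 24.2, 35.2 and 19.8 TPM in TAM replicates 1 to 5, against 112, 91.3 and 121 TPM in microglia replicates 1 to 3. All TAM libraries were below all microglia libraries, with a log2 fold change of -2.08 (SE 0.22, limma adjusted p = 0.000195) on TPM and -1.27 (SE 0.32, limma adjusted p = 0.0115) on rescaled TPM.

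Egr factors are zinc finger proteins induced through MAP kinase signalling. Egr1 ranked 12 in TAMs and 6 in microglia by mean TPM, and it was at 142, 92.8, 179, 177 and 221 TPM in TAM replicates 1 to 5, against 815, 758 and 986 TPM in microglia replicates 1 to 3. The groups stood far apart, and the log2 fold change was -2.43 (SE 0.26, limma adjusted p = 0.000194) on TPM and -1.61 (SE 0.25, limma adjusted p = 0.00145) on rescaled TPM. The microglia mean was 5.25 times the TAM mean. Egr3 was at 17.6, 1.92, 17.2, 11.4 and 8.96 TPM in TAM replicates 1 to 5, against 57.0, 51.9 and 82.8 TPM in microglia replicates 1 to 3. TAM replicate 2 was by far the lowest, and the groups did not overlap. The log2 fold change of Egr3 was -2.61 (SE 0.57, limma adjusted p = 0.00441) on TPM and -1.83 (SE 0.63, limma adjusted p = 0.0404) on rescaled TPM. The rescaled call was lost without TAM replicate 4 or 5 or any 1 microglia library (adjusted p of 0.0583 to 0.129). Egr2, which is needed for myelination and acts in macrophages, was at 22.1, 15.0, 39.5, 28.7 and 36.4 TPM in TAM replicates 1 to 5, against 62.9, 55.6 and 71.9 TPM in microglia replicates 1 to 3. Its groups did not overlap on TPM, with log2 fold changes of -1.21 (SE 0.29, limma adjusted p = 0.00711) on TPM and -0.40 (SE 0.29, limma adjusted p = 0.288) on rescaled TPM. The log2 ratio of Egr1 to Egr2 was 2.50 ± 0.20 in TAMs (SD, n = 5) and 3.73 ± 0.05 in microglia (SD, n = 3), with no overlap.

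The Zfp36 and Btg2 products speed up the removal of mRNA tails, and all 3 genes of this group were lower on both scales. Zfp36 (chr7:28376784-28379255, - strand), which encodes tristetraprolin, a factor that destabilises cytokine mRNAs such as that of tumor necrosis factor, was at 542, 782, 577, 662 and 761 TPM in TAM replicates 1 to 5, against 2801, 2985 and 2763 TPM in microglia replicates 1 to 3. It was the most abundant of the 31 in microglia, and no TAM library came near. The log2 fold change of Zfp36 was -2.11 (SE 0.15, limma adjusted p = 3.85e-05) on TPM and -1.29 (SE 0.18, limma adjusted p = 0.000964) on rescaled TPM. Zfp36l1, its close relative, was at 95.9, 149, 116, 67.3 and 131 TPM in TAM replicates 1 to 5, against 358, 370.1 and 292 TPM in microglia replicates 1 to 3, without overlap. Its log2 fold change was -1.64 (SE 0.24, limma adjusted p = 0.000763) on TPM and -0.82 (SE 0.25, limma adjusted p = 0.0280) on rescaled TPM, and the rescaled call was lost without TAM replicate 1 or microglia replicate 1 or 2 (adjusted p up to 0.102). Zfp36 shares exonic sequence with the opposite-strand gene Gm44710, and Zfp36l1 with Gm26669 (8.14 to 20.1 TPM in TAMs and 30.4 to 42.4 TPM in microglia). Btg2, an antiproliferative gene whose product binds the deadenylase complex, was at 125, 159, 116, 139 and 153 TPM in TAM replicates 1 to 5, against 656, 586 and 611 TPM in microglia replicates 1 to 3. Both groups were tight and far apart, with a log2 fold change of -2.16 (SE 0.12, limma adjusted p = 1.69e-05) on TPM and -1.34 (SE 0.19, limma adjusted p = 0.000840) on rescaled TPM.

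MAP kinase phosphatases switch off the kinases that induce early genes, and the 4 of them split. Dusp5 (chr19:53529109-53542431, + strand), a nuclear phosphatase for ERK, was at 27.5, 27.7, 23.5, 33.4 and 21.3 TPM in TAM replicates 1 to 5, against 16.1, 11.1 and 17.6 TPM in microglia replicates 1 to 3. Every TAM library lay above every microglia library. Its log2 fold change was 0.80 (SE 0.19, limma adjusted p = 0.00611) on TPM and 1.58 (SE 0.29, limma adjusted p = 0.00288) on rescaled TPM, and on both scales it stayed higher when any 1 library was left out. Dusp5 overlaps an antisense gene on the opposite strand. Dusp1, a nuclear phosphatase for p38, JNK and ERK, was at 202, 352, 207, 227 and 286 TPM in TAM replicates 1 to 5, against 649, 728 and 627 TPM in microglia replicates 1 to 3. All TAM libraries were lower on TPM, although TAM replicate 2 stood above the other 4. On rescaled TPM the groups overlapped, with the highest TAM library at 448 and the lowest microglia library at 409.8. Dusp1 changed by a log2 of -1.42 (SE 0.19, limma adjusted p = 0.000498) on TPM and -0.59 (SE 0.20, limma adjusted p = 0.0411) on rescaled TPM. The rescaled call for Dusp1 held without TAM replicate 2 but was lost without any other 1 library (adjusted p up to 0.131). Dusp2, another nuclear phosphatase, ranged over 32.6 to 83.8 TPM in TAMs and 96.5 to 106 TPM in microglia, and Dusp6, the cytoplasmic phosphatase for ERK, over 79.3 to 104 TPM in TAMs and 182 to 187 TPM in microglia. Both were lower on TPM (log2 fold change -0.99, adjusted p = 0.0114, and -1.04, adjusted p = 0.000158) and neither passed on rescaled TPM (-0.18 and -0.22).

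Nr4a genes encode orphan nuclear receptors that restrain inflammatory genes in macrophages. Nr4a3 was at 16.1, 12.2, 22.0, 28.8 and 21.2 TPM in TAM replicates 1 to 5, against 13.1, 10.5 and 18.2 TPM in microglia replicates 1 to 3. The groups overlapped on TPM. Its log2 fold change was 0.48 (SE 0.28, limma adjusted p = 0.156) on TPM and 1.24 (SE 0.30, limma adjusted p = 0.0101) on rescaled TPM, so it passed on the rescaled values only. On TPM it also passed without TAM replicate 2 (0.63, adjusted p = 0.0470) and with the age of the mice in the fit (0.76, adjusted p = 0.0366). These reruns are not separate support. All microglia were at day 60, so the age term rests on the TAM libraries, of which replicate 2 at day 90 stood apart from the others at 61 to 68. Nr4a1, also called Nur77, was at 202, 205, 189, 239.9 and 234 TPM in TAM replicates 1 to 5, against 533, 434 and 549.6 TPM in microglia replicates 1 to 3. The groups were well separated on TPM and overlapped on rescaled TPM, with log2 fold changes of -1.24 (SE 0.12, limma adjusted p = 0.000143) on TPM and -0.41 (SE 0.20, limma adjusted p = 0.122) on rescaled TPM. On rescaled TPM it passed without microglia replicate 2 (-0.63, adjusted p = 0.0345) and with no other library left out. Nr4a2, also called Nurr1, was at 29.0, 42.0, 29.2, 15.5 and 45.3 TPM in TAM replicates 1 to 5, against 20.5, 53.8 and 60.9 TPM in microglia replicates 1 to 3. Microglia replicate 1 was below all but 1 TAM library, the groups overlapped, and there was no call on either scale (-0.42 on TPM, adjusted p = 0.404, and 0.38 rescaled, adjusted p = 0.380). The log2 ratio of Nr4a1 to Nr4a3 was 3.40 ± 0.39 in TAMs (SD, n = 5) and 5.11 ± 0.23 in microglia (SD, n = 3), without overlap.

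Klf2, a Krüppel-like factor that keeps endothelial cells and macrophages quiescent, was at 168, 141, 219, 188 and 246 TPM in TAM replicates 1 to 5, against 211, 237 and 258 TPM in microglia replicates 1 to 3. The groups overlapped on TPM. Its log2 fold change was -0.31 (SE 0.18, limma adjusted p = 0.158) on TPM and 0.51 (SE 0.16, limma adjusted p = 0.0277) on rescaled TPM. The rescaled call was lost without TAM replicate 1, 3 or 4 or microglia replicate 2 or 3 (adjusted p up to 0.119). Klf4, one of the reprogramming factors and a monocyte differentiation factor, was at 31.4, 52.6, 52.4, 45.9 and 86.9 TPM in TAM replicates 1 to 5, against 119, 180.1 and 188 TPM in microglia replicates 1 to 3. TAM replicate 5 was the highest TAM library and still below microglia, and the log2 fold change was -1.62 (SE 0.30, limma adjusted p = 0.00201) on TPM and -0.80 (SE 0.19, limma adjusted p = 0.00930) on rescaled TPM. The log2 ratio of Klf2 to Klf4 was 1.87 ± 0.41 in TAMs (SD, n = 5) and 0.55 ± 0.23 in microglia (SD, n = 3). Klf6, a further zinc finger factor of this family, ranged over 66.2 to 101 TPM in TAMs and 144 to 156 TPM in microglia, lower on TPM (-0.83, adjusted p = 0.00132) and without a call on rescaled TPM (-0.01, adjusted p = 0.955). Myc, the growth and ribosome biogenesis factor, was at 37.3, 35.2, 46.3, 50.3 and 65.1 TPM in TAM replicates 1 to 5, against 195, 164 and 225 TPM in microglia replicates 1 to 3. The groups did not overlap, and the log2 fold change was -2.05 (SE 0.21, limma adjusted p = 0.000156) on TPM and -1.24 (SE 0.20, limma adjusted p = 0.00157) on rescaled TPM.

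The other 6 genes encode feedback and effector proteins, of which 6 were lower on TPM and 4 on rescaled TPM. Socs3, the inhibitor of signalling through gp130 receptors and JAK kinases, was at 113, 173, 83.0, 105 and 92.9 TPM in TAM replicates 1 to 5, against 509, 569 and 509 TPM in microglia replicates 1 to 3. TAM replicate 2 was the highest TAM library, and microglia were all far above it, with a log2 fold change of -2.26 (SE 0.21, limma adjusted p = 0.000127) on TPM and -1.44 (SE 0.28, limma adjusted p = 0.00400) on rescaled TPM. Ier5, a regulator of heat shock factor, was at 107, 144, 115, 166 and 117 TPM in TAM replicates 1 to 5, against 675, 617 and 628 TPM in microglia replicates 1 to 3, without overlap. Ier5 changed by a log2 of -2.31 (SE 0.15, limma adjusted p = 2.82e-05) on TPM and -1.49 (SE 0.24, limma adjusted p = 0.00164) on rescaled TPM. Ier2 was at 88.6, 105, 84.4, 111 and 111 TPM in TAM replicates 1 to 5, against 308, 251 and 278 TPM in microglia replicates 1 to 3, also without overlap. Its log2 fold change was -1.48 (SE 0.13, limma adjusted p = 8.16e-05) on TPM and -0.65 (SE 0.20, limma adjusted p = 0.0254) on rescaled TPM, with the rescaled call lost without TAM replicate 1 or 3 or microglia replicate 1 or 3 (adjusted p up to 0.0710).

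Rhob, a small GTPase of endosomes and the only immediate early member of its trio with Rhoa and Rhoc, was at 675, 524, 827, 941 and 938 TPM in TAM replicates 1 to 5, against 2828, 2614 and 2676 TPM in microglia replicates 1 to 3. It was the most abundant of the 31 in TAMs and still lower there in every library, with a log2 fold change of -1.82 (SE 0.20, limma adjusted p = 0.000237) on TPM and -0.998 (SE 0.24, limma adjusted p = 0.0104) on rescaled TPM. Ier3, a regulator of apoptosis, ranged over 181 to 264 TPM in TAMs and 442 to 523 TPM in microglia and Gadd45b, a growth arrest and stress kinase regulator, over 138 to 239 TPM in TAMs and 335 to 369.9 TPM in microglia. Both were lower on TPM (-1.07, adjusted p = 0.000449, and -1.04, adjusted p = 0.00119), and neither passed on rescaled TPM (-0.24 and -0.22).

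**Figure D2:**
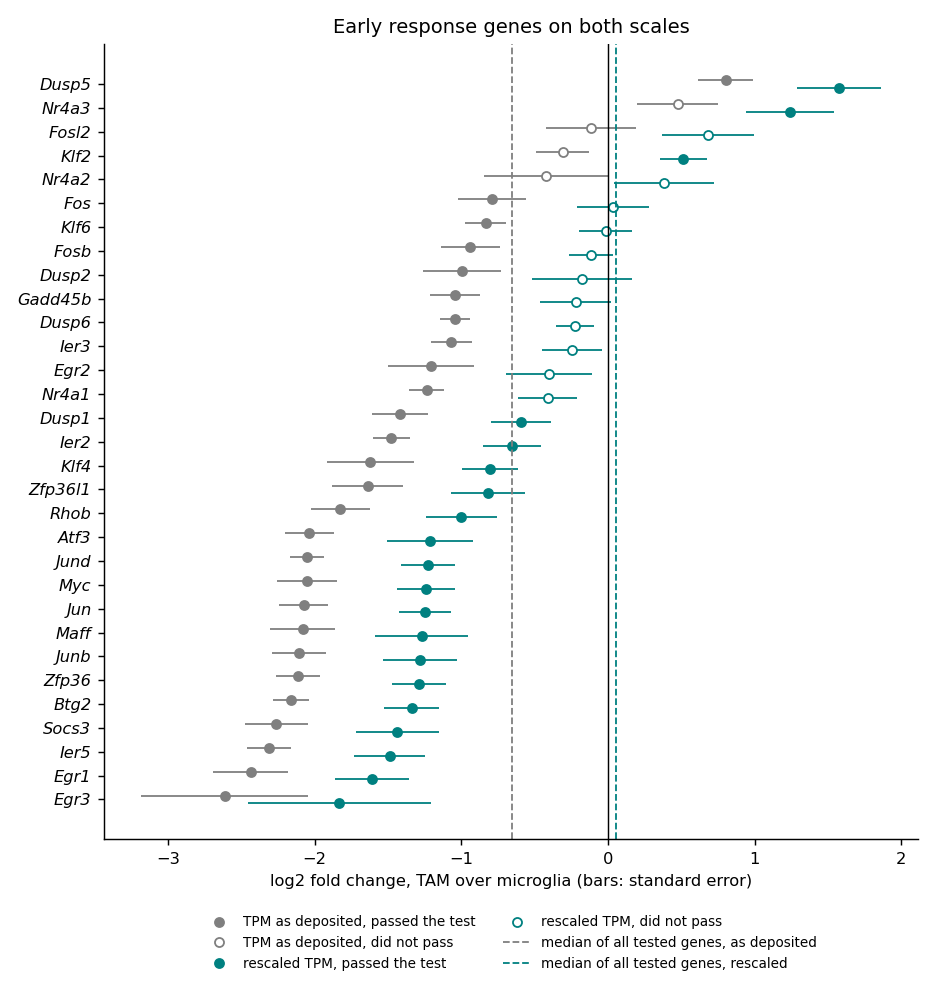
Log2 fold change of TAM over microglia (x axis, bars are standard errors) for each early response gene, on TPM as deposited (grey) and rescaled TPM (green), with filled points for genes that passed at an adjusted p of 0.05 and dashed lines at the medians of all tested genes, -0.65 and 0.05. The 17 genes lower on both scales lie at the bottom, from Dusp1 to Egr3, and Dusp5 at the top is higher on both.

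Within families, 23 pairs of genes were compared by their log2 ratio in each library with a two-sided exact permutation test over the 56 groupings of the libraries. In 9 pairs the groups did not overlap, and each had the smallest p that this exact test allows, 0.0357 (adjusted over the 23 pairs, p = 0.0913), so 0 of the 23 passed after adjustment. All 3 Dusp5 pairs were among the 9. The difference in log2 ratio, TAM minus microglia, was -2.22 for Dusp1 to Dusp5, -1.80 for Dusp2 to Dusp5 and 1.85 for Dusp5 to Dusp6. The others were Fosb to Fosl2 (-0.82), Egr1 to Egr2 (-1.23), Egr2 to Egr3 (1.41), Nr4a1 to Nr4a3 (-1.71), Klf2 to Klf4 (1.31) and Ier2 to Ier5 (0.84). The 3 Jun pairs showed the smallest differences together with Dusp2 to Dusp6 (0.05).

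**Figure D3:**
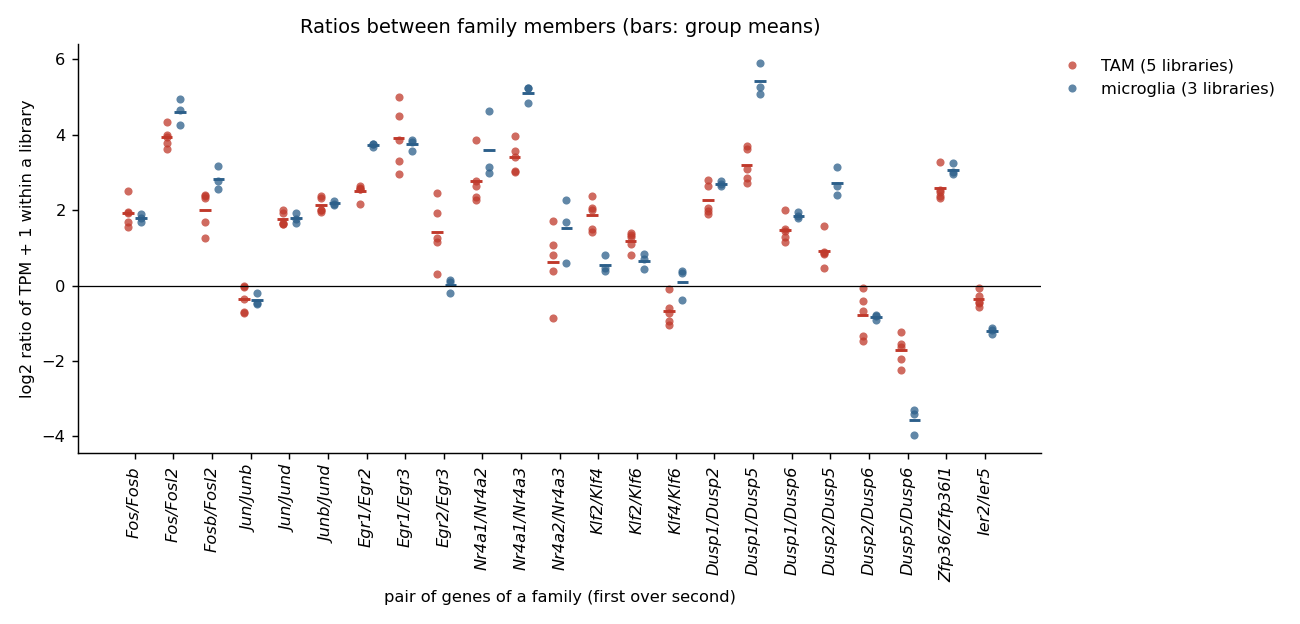
Log2 ratio of TPM + 1 between genes of a family (y axis) in each TAM library (red, left of each pair) and each microglia library (blue, right), with bars at group means. The groups overlap for the 3 Jun pairs and stand apart for 9 pairs, among them the 3 with Dusp5.

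Early response genes are short: their median span was 3969 bases, against 22555 bases over tested protein-coding genes, and 7 of 31 (22.6%) have a coding transcript of 1 exon, against 3.44%. These 7, Jun, Junb, Jund, Ier2, Ier5, Zfp36 and Rhob, were all lower on both scales, with a median log2 fold change of -2.07 on TPM and -1.25 on rescaled TPM. The other 24 had medians of -1.14 and -0.32, with 19 lower on TPM and 10 on rescaled TPM. Their rescaled values ran from -1.83 to 1.58, and Egr3 (-1.83) and Egr1 (-1.61) fell further than any of the 7, of which the lowest was at -1.49. This split was made after the values were seen and carries no test.

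On TPM, the median coefficient of variation over the 31 genes was 23.2% in TAMs and 9.52% in microglia, and it was larger in TAMs for 27 genes. The share of all tested genes with a larger one in TAMs was not counted, so the wider spread cannot be called a trait of these genes. The coefficient was not computed on rescaled TPM, where only a different measure, the mean level per library, was taken. On rescaled TPM, the mean log2 level over the 31 genes ran from 6.84 to 7.18 across the TAM libraries and from 7.33 to 7.90 across the microglia libraries, the wider span. TAM replicate 2, from the oldest mouse at day 90, was the highest TAM library on TPM for 9 genes, as were replicates 4 and 5 for 9 each, and the lowest for 8, against 11 in replicate 1. Relative to the mean TPM of the other 4 TAM libraries, replicate 2 held 0.139 times as much Egr3, 0.473 times as much Egr2, 0.516 times as much Egr1 and 0.555 times as much Nr4a3. It held 2.02 times as much Fosl2, 1.83 times as much Dusp2, 1.76 times as much Socs3 and 1.75 times as much Fos. In that library Egr genes and Fos thus stood on opposite sides of the other TAM libraries. Marker levels differed there too, and their part was not tested. The summed TPM of 8 microglia markers was 2822 in TAM replicate 2 and 6106 to 7620 in the other TAM libraries, that of 8 neutrophil markers 656 and 245 to 374, and that of 8 heat shock genes 3453 and 1800 to 2473.

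**Figure D4:**
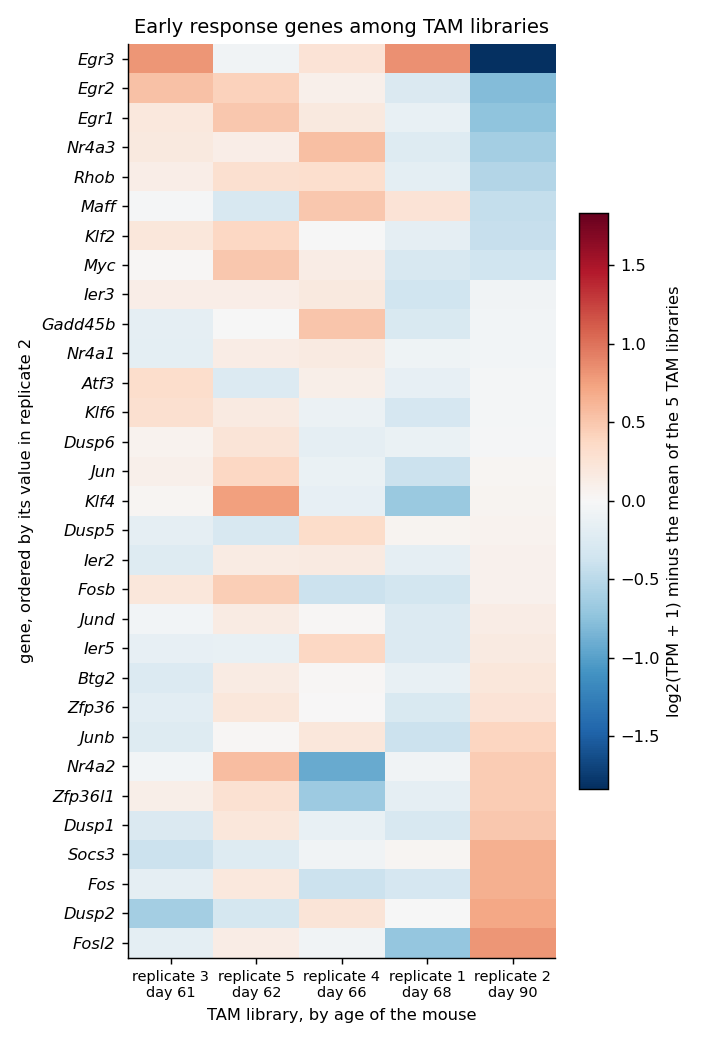
Deviation of log2(TPM + 1) from the mean of the 5 TAM libraries (colour) for each early response gene, with libraries ordered by age of the mouse and genes by their value in replicate 2. Replicate 2 at day 90 is lowest for Egr3, Egr2, Egr1 and Nr4a3 at the top and highest for Fosl2, Dusp2, Fos and Socs3 at the bottom.

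Related genes were counted in the same way, to be read against the shares of all tested genes. Those were 56.4% lower and 8.22% higher on TPM, and 21.2% lower and 27.3% higher on rescaled TPM. Of 30 upstream regulators (kinases, their effector kinases, and the factors that bind early promoters) 25 were lower and 0 higher on TPM, with 10 lower and 9 higher on rescaled TPM. Their median log2 fold change was -0.83 on TPM and -0.04 on rescaled TPM, close to those of all genes. Without microglia replicate 2 or 3 the rescaled counts were 6 lower and 5 higher. Rps6ka1, which encodes the ERK-activated kinase RSK1, averaged 113 ± 9.85 TPM in TAMs and 325 ± 17.9 TPM in microglia (SD, n = 5 and 3), lower on both scales (-1.51 and -0.69). Rps6ka3, for RSK2, was also lower on both (-1.15 and -0.36). Map2k1, for the ERK kinase MEK1, and Mapk14, for p38 alpha, were lower on TPM only (-1.45 and -1.25). Srf, for serum response factor itself, was at 12.5 to 15.5 TPM in TAMs and 22.0 to 26.1 TPM in microglia and stood at 0.01 on rescaled TPM.

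Of 47 relatives of the 31 genes in the same families, 41 were tested, with 25 lower and 2 higher on TPM and 14 lower and 6 higher on rescaled TPM (medians -0.79 and -0.03). The share lower on TPM, 61.0%, was near the 56.4% of all tested genes, and on rescaled TPM it was 34.15% against 21.2%. Higher calls over all tested genes were 8.22% on TPM and 27.3% on rescaled TPM. Without microglia replicate 2 or 3, 3 relatives were higher on rescaled TPM, and without microglia replicate 1 or 2, 1 was higher on TPM. Klf10, an early target of transforming growth factor beta, averaged 16.3 ± 3.40 TPM in TAMs and 81.5 ± 7.72 TPM in microglia, a log2 fold change of -2.27 on TPM and -1.47 on rescaled TPM. Dusp4, a nuclear phosphatase for ERK and JNK, was lower as well (-2.02 and -1.30), unlike Dusp5. Klf3 was lower on both scales (-1.32 and -0.52) and Btg1 on TPM only (-1.10). The 2 relatives higher on both scales, named after their values were seen, were Gadd45a (1.20 and 1.99) and the cytokine signalling inhibitor Cish (0.60 and 1.20).

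Of 40 other early response genes 38 were tested, with 24 lower and 2 higher on TPM and 13 lower and 7 higher on rescaled TPM (medians -1.06 and -0.26). Here too the share lower on TPM, 63.2%, was near the 56.4% of all tested genes, and on rescaled TPM it was 34.2% against 21.2%. Over all tested genes 8.22% were higher on TPM and 27.3% on rescaled TPM. Without microglia replicate 3, 1 was higher on TPM. Nfkbia, the NF-kB inhibitor that NF-kB itself induces, averaged 232 ± 34.8 TPM in TAMs and 1405 ± 196 TPM in microglia (-2.60 and -1.77). Nfkbiz (-2.06 and -1.24), the clock gene Per1 (-2.03 and -1.21) and Csrnp1 (-1.57 and -0.75) were also lower on both scales. The 2 higher on both, named after their values were seen, were Ptgs2, which encodes cyclooxygenase 2 (1.41 and 2.18), and the bZIP repressor Nfil3 (0.64 and 1.43).

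**Figure D5:**
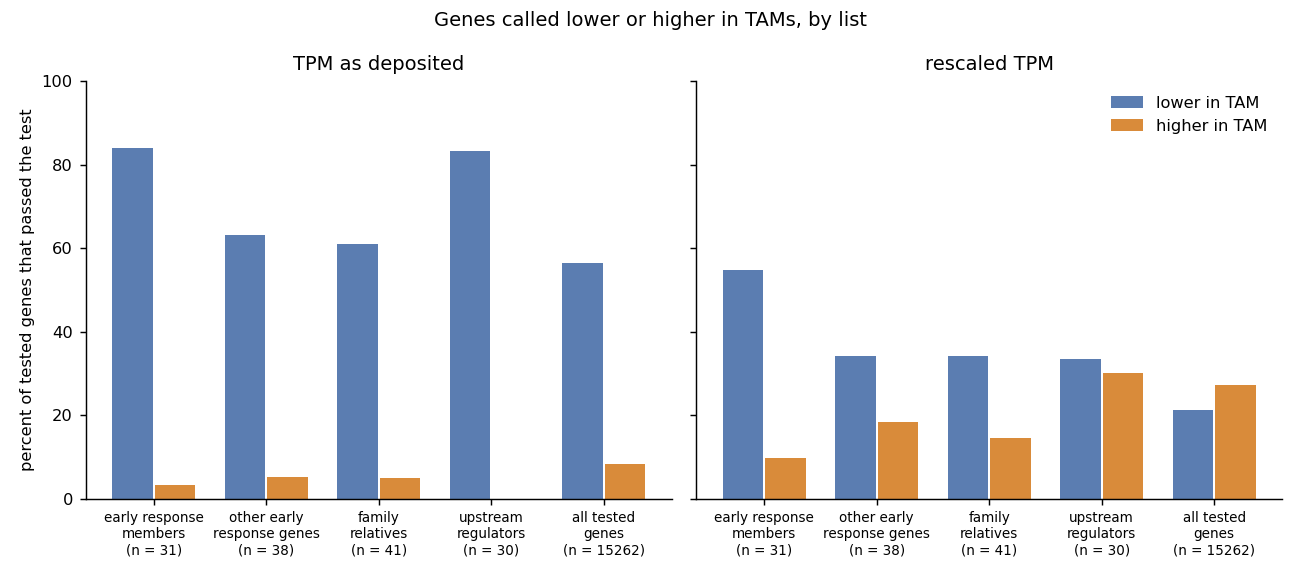
Percent of tested genes called lower (blue) or higher (orange) in TAMs at an adjusted p of 0.05, for the 31 early response genes, 3 related lists and all 15262 tested genes, on TPM as deposited (left) and rescaled TPM (right). On rescaled TPM 54.8% of the 31 genes were lower, against 33.3% to 34.2% of the related lists and 21.2% of all genes.

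Markers of other cells and of handling stress moved with the groups, and their part in the early response differences was not tested. For comparison, 21.2% of all tested genes were lower and 8.18% higher on both scales. All 10 endothelial markers (summed 15.7 to 99.0 TPM in TAMs and 669 to 2145 TPM in microglia), all 8 mural markers (4.69 to 23.6 and 339 to 868 TPM) and 7 of 8 astrocyte markers (12.4 to 68.5 and 102 to 642 TPM) were lower in TAMs on both scales, as were 6 of 8 oligodendrocyte markers (47.0 to 58.4 and 151 to 804 TPM). Cldn5, the endothelial junction gene, was at 1.5 to 19.4 TPM in TAMs and 153 to 375 TPM in microglia, and Rgs5 of mural cells at 0.845 to 5.65 TPM in TAMs and 73.6 to 234 TPM in microglia. Within microglia, replicate 1 had the lowest endothelial (669 TPM), mural (339 TPM), astrocyte (102 TPM) and oligodendrocyte (151 TPM) sums.

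Microglia markers were lower in TAMs in 6 of 8 on TPM and 4 of 8 on both scales, with 1 higher (summed 2822 to 7620 TPM in TAMs and 14320 to 17160 TPM in microglia). The shares of all tested genes lower were 56.4% on TPM and 21.2% on both scales. P2ry12 and Tmem119, which define resting microglia, were at 65.0 to 382 and 53.5 to 150 TPM in TAMs and at 1972 to 2586 and 1164 to 1289 TPM in microglia. Of 7 tested monocyte markers 4 were higher in TAMs on both scales (summed 5252 to 11700 TPM in TAMs and 689 to 1113 TPM in microglia). Of 6 tested neutrophil markers 4 were higher on both scales (summed 245 to 656 TPM in TAMs and 430 to 478 TPM in microglia). The other 2, named after their values were seen, were lower on TPM alone: Mmp9 with a log2 fold change of -1.07 and Csf3r with -1.31. Csf3r, at 99.4 to 223 TPM in TAMs and 389 to 447 TPM in microglia, made up most of the microglia sum. Heat shock genes, a list kept apart from the 31, were lower in 8 of 8 on TPM and 5 of 8 on rescaled TPM, where 1 was higher (1800 to 3453 TPM in TAMs and 7763 to 10280 TPM in microglia). Neuron and granule neuron lineage markers were low in both groups or went both ways. Their sums were 7.05 to 21.3 and 5.88 to 64.9 TPM in TAMs and 15.9 to 54.3 and 15.8 to 58.8 TPM in microglia. T and B cell markers summed to more in every TAM library (29.8 to 594 TPM) than in any microglia library (4.49 to 15.7 TPM). TAM replicates 3 and 1 held the most, at 594 and 264 TPM. Of the 3 tested, 1 was lower and 1 higher on TPM, and 0 were lower and 1 higher on rescaled TPM. Of the first 2 genes of each marker list, Atoh1 of the granule lineage was at 0 in every microglia library, and no other was at 0 in any library.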

How the data were processed

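The deposited values of each library were TPM, per the file headers. The mm10 build, FastQC and DESeq2 come from the submitters' processing notes, with no versions; how reads were aligned and counted is not given in the sources used here. From the authors' deposited table came DESeq2's log2 fold change and p-value for each gene, and its mean signal, which was not printed. The 3 unnamed columns holding stray entries were left out. No counts were given, so read depth is unknown, intervals for counting error cannot be stated, and the count test planned for counts was replaced by limma. Genes at 1 TPM or more in 3 or more libraries (15262) were fitted in limma 3.58.1 (R 4.3.3) with an intensity trend on log2(TPM + 1), which understates changes of low genes. Benjamini-Hochberg adjustment ran over all of them at 0.05. Fold changes are TAM over microglia. For rescaled TPM, a library was divided by the median of its ratios to the geometric mean over libraries, among genes above 0 in all libraries. The scale factors were 0.725 to 1.06 in TAMs and 1.17 to 1.69 in microglia. The 3 features Mir6236, Mir6240 and Gm15662 held 13.6% to 25.6% of the TAM totals and 3.20% to 15.4% of the microglia totals. Log2 ratios within families were tested with scipy 1.17.1. Copies were searched with blastn 2.17.0. The fit was tested on simulated data.

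The 31 genes, the gene lists and the marker lists were chosen with earlier results of these data known. All 31 are accounted for. Of each related list, the 4 called genes of lowest p on TPM are named, and of marker lists the sums and counts, with some of the first 2 genes. Srf and genes said to be named after their values were seen fall outside that rule. Gene coordinates (mm10) come from the deposited table, with strand and exons from GENCODE M21. Correlations across genes were 0.921 to 0.965 within TAMs and 0.942 to 0.973 within microglia, so no libraries were identical. As alternatives, the scaling, low-value filter, pseudocount, age, a replicate block and single libraries left out were tried.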

Additional observations from a re-analysis of the deposited data

Results flagged for a closer look

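Gadd45b stood out in TAM replicate 4, at 238.8 TPM against 138 to 167 TPM in the other 4 TAM libraries. The gap from this library to the next, divided by the range of the 5, was 0.716, above Dixon's 95% critical value for a group of 5. About 1 in 20 groups passes this mark by chance, and 31 genes were looked at.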

How the results depend on the processing

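Scaling changed the counts. On rescaled TPM the early response genes had 17 lower and 3 higher in TAMs, the upstream regulators 10 and 9, the family relatives 14 and 6, the other early response genes 13 and 7, and all tested genes 3241 and 4167. The cause was not tested. With age in the fit, 2 early response genes (Dusp5 and Nr4a3) and 1 relative were higher, and without Mir6236, Mir6240 and Gm15662, 4 of the other early response genes were higher. Leaving out each library in turn, the counts on TPM were 25 to 26 lower and 1 to 2 higher for the early response genes, 19 to 27 and 0 to 1 for the regulators, 21 to 27 and 1 to 2 for the relatives, 23 to 26 and 1 to 3 for the other early response genes, and 5581 to 9243 and 894 to 1303 for all genes. On rescaled TPM they were 13 to 17 and 2 to 3, 6 to 12 and 5 to 9, 10 to 14 and 3 to 6, 10 to 14 and 5 to 8, and 1546 to 3414 and 2863 to 4433. The Fos log2 fold change turned to 0.035 on rescaled TPM, and with 1 library left out on either scale it ran from -0.955 to 0.158. The Klf6 log2 fold change ran from -0.906 to 0.173 in the same way. Without a filter, or with a pseudocount of 0.1 TPM, all 31 genes kept their call and direction.

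Replicate numbers did not pair the libraries: same-numbered TAM and microglia libraries deviated from their group means with correlations of 0.15, 0.0139 and -0.0507 across genes. With the replicate number as a block, the early response genes had 26 lower and 1 higher and all genes 8613 and 1103. With any 1 library left out, all 23 pairs kept the main result of no call. Fewer groupings then remain, so a pass is harder to reach and these reruns carry no weight. On rescaled TPM and with a pseudocount of 0.1 TPM, 0 of the 23 pairs passed. These reruns could hardly differ, since scaling nearly cancels in a ratio. With a smallest possible p of 0.0357 in the exact permutation test, few separated pairs cannot pass the adjustment, so 0 passing does not show that ratios were alike. Read depth is unknown, so no limit from depth can be given.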
